A study of Homo sapiens with 16 samples.

Results

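Cytosolic ribosomal protein genes encode the proteins of the ribosome that translates messenger RNA in the cytoplasm. They were taken from a table of read counts with 69222 gene rows, as every gene with a symbol of RPL or RPS plus a number, together with RPLP0, RPLP1, RPLP2 and RPSA. The rule gave 85 genes, and no pseudogene was among the matches. By role they are 43 genes of the large subunit, 31 of the small subunit, 3 of the stalk of the large subunit and 8 paralogues. The paralogues are RPL22L1, RPL26L1, RPL36AL, RPL39L, RPL7L1, RPS27L, RPL3L, which is known from heart and skeletal muscle, and RPL10L, which is known from testis.

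A ribosome holds its proteins in set proportions, and growing cells spend a large share of their transcription and translation on making them. Most of these messenger RNAs begin with a C followed by an unbroken run of C and T (the terminal oligopyrimidine, or TOP, tract), through which LARP1 and the kinase mTOR control their translation. Neuroblastoma cells that stop dividing and grow neurites are known to leave the growth state in which ribosome production is high, and MYC and MYCN are known activators of ribosomal protein genes.

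The cells were SH-SY5Y, a human neuroblastoma line that can be turned into neuron-like cells, and polyadenylated RNA was sequenced from 8 groups of 2 libraries. On each of 3 conductive films coated with poly-L-lysine and laminin, cells were differentiated with electrical stimulation (P(rGO) ES, PEDOT:PSS ES and ITO ES) or without it (P(rGO), PEDOT:PSS and ITO). PEDOT:PSS is a conducting polymer blend, ITO is indium tin oxide, and P(rGO) holds reduced graphene oxide in a polymer. Stimulation was a square wave from 0 V to 0.1 V at 1 Hz for 8 h a day over the last 4 days. The control group of differentiated cells on culture plates (differentiated plate) had the same medium, in which serum was lowered in steps to 5, 2.5 and 1%, retinoic acid was present at 10 µM, and brain-derived neurotrophic factor (BDNF) at 50 ng/mL followed for 4 days. The second control was untreated cells on culture plates (untreated). The sources used do not state the coating of the plates or the day on which untreated cells were taken. All groups are 1 cell line, and nothing in the labels says that replicates were separate cultures, so p-values measure how far these libraries scatter, and that scatter may be technical.

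Libraries held 15600410 to 20851000 reads assigned to genes. Of 9 markers of sympathetic neuroblastoma, CHGA was listed at 0 in all 16 libraries and TH lay between 0.597 and 9.15 CPM (counts scaled to the same total in every library). DBH was well above that, and the 9 markers summed to 2233 to 2950 CPM on films, 3399.7 and 3347 CPM on differentiated plates, and 4862 and 4624 CPM in untreated cells. The 4 Schwann cell and glia markers never summed above 9.08 CPM. The 10 mesenchymal or fibroblast markers summed to 207 to 387 CPM on films, between 244 and 276 CPM on differentiated plates, and between 810.3 and 1097 CPM in untreated cells. The 5 cell cycle markers summed to 138 to 580.3 CPM on films, 592 and 321 CPM on differentiated plates, and 1339 and 1886 CPM in untreated cells. In bulk RNA, fewer cells of a kind and less RNA per cell cannot be told apart.

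Not every ribosomal protein gene could be read from this table. RPL7A, RPL10L, RPS18 and RPS25 were listed at 0 in all 16 libraries, and 80 of the 85 genes passed the filter on low counts. RPL7A, RPS18 and RPS25 encode core proteins of the cytosolic ribosome, and their pseudogene rows held 11771, 8880 and 106 counts over all libraries. RPL17 and RPS10 had 901 and 247 counts, fewer than the 13316 and 1727 counts on their pseudogene rows. RPS9 (597 counts), RPL3L (56), RPL36A (1930), RPL26 (3675) and RPL22L1 (2477) were also low. Reads that fit several places were set aside before counting, so genes with near-identical copies are uncertain. Exons of another gene on the same strand overlap 35 members in the GENCODE v29 annotation, and whether counting used the strand is not stated in any source used. The part of these features in the low counts was not tested. Pseudogene rows of ribosomal proteins held 2.47 to 3.71 reads per 100 reads on the members in each library.

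The starts of the transcripts show what most members share in sequence. A tract of at least 5 bases, beginning with C at the start base, was found at a RefSeq start (GRCh38.p14) in 47 of the 68 members that matched the promoter table, or 69.1%, against 5.14% of 27305 genes. The sequences below run from 30 bases before the start to 20 bases into the transcript, 5′ to 3′. Capitals mark the unbroken run of C and T from a C at the start, and a sequence with no capitals has none. RPLP0, the base of the stalk, RPS6, the small subunit protein that S6 kinase phosphorylates, RPL13A and RPS27 stand for the members with a tract, RPS27L and RPL22L1 are set beside their partners, and 3 more paralogues follow without theirs.
RPLP0 (chr12:120201092-120201141, minus strand): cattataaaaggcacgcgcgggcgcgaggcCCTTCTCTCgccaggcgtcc
RPS6 (chr9:19380217-19380266, minus strand): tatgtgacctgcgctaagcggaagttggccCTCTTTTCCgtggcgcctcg
RPL13A (chr19:49487578-49487627, plus strand): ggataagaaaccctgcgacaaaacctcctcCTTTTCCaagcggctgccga
RPS27 (chr1:153990732-153990781, plus strand): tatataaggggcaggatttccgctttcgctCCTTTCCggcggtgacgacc
RPS27L (chr15:63157458-63157507, minus strand): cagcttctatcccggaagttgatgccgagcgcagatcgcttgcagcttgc
RPL22 (chr1:6199576-6199625, minus strand): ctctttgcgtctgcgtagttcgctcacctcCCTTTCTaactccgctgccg
RPL22L1 (chr3:170870176-170870225, minus strand): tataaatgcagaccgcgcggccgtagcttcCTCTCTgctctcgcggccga
RPL36AL (chr14:49620607-49620656, minus strand): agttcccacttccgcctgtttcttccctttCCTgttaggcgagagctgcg
RPL26L1 (chr5:172958699-172958748, plus strand): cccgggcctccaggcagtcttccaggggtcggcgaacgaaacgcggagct
RPL7L1 (chr6:42879586-42879635, plus strand): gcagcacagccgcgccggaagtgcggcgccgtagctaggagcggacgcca
RPLP0 and RPS6 have tracts of 9 bases and RPL22L1 has 1 of 6 bases, while RPS27L, RPL26L1 and RPL7L1 have no C at the start and RPL36AL has a run of 3. RPL26 and RPL36A, the partners of RPL26L1 and RPL36AL, have tracts of 12 and 10 bases.

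Other short motifs were searched on both strands of the 300-base windows from 250 bases before to 50 bases after the start. CCGGAAG, the core read by GABPA, was in 24 of the 68 members (35.3%), against 12.2% of genes, and it lies in the RPS27L and RPL7L1 sequences above. AAGATGGCG, the core read by YY1, was in 6 members (8.82%), against 2.14% of genes. GGGCGG was in 58.8% of members and 48.3% of genes, TATAAA in 10.3% of members and 14.0% of genes, and the E-box CACGTG, the form bound by MYC and MYCN, in 7.35% of members and 8.77% of genes. The E-box and the TATA motif were thus no more frequent in these windows than over all genes, which says nothing of factor binding.

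Levels of the members differed widely when set per kilobase of coding sequence. RPL41, the shortest ribosomal protein, averaged 6372 CPM per kb over the 16 libraries, RPS27 3513 and RPL37A 2429. The counts are of whole genes and the length is of the coding sequence alone, so genes with a short coding sequence rank high. RPL41 has 75 coding bases, and by counts over all libraries it had 139206, against 456337 for RPL4 and 385137 for RPL8. At the low end stood RPS10 at 1.69 and RPL3L at 0.153 CPM per kb, and below them the 4 genes listed at 0. RPL41 ran from 4255 CPM per kb in the second ITO library to 11589 in the second untreated library. The tail of low levels holds the paralogues and the genes with uncertain counts.

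**Figure D1:**
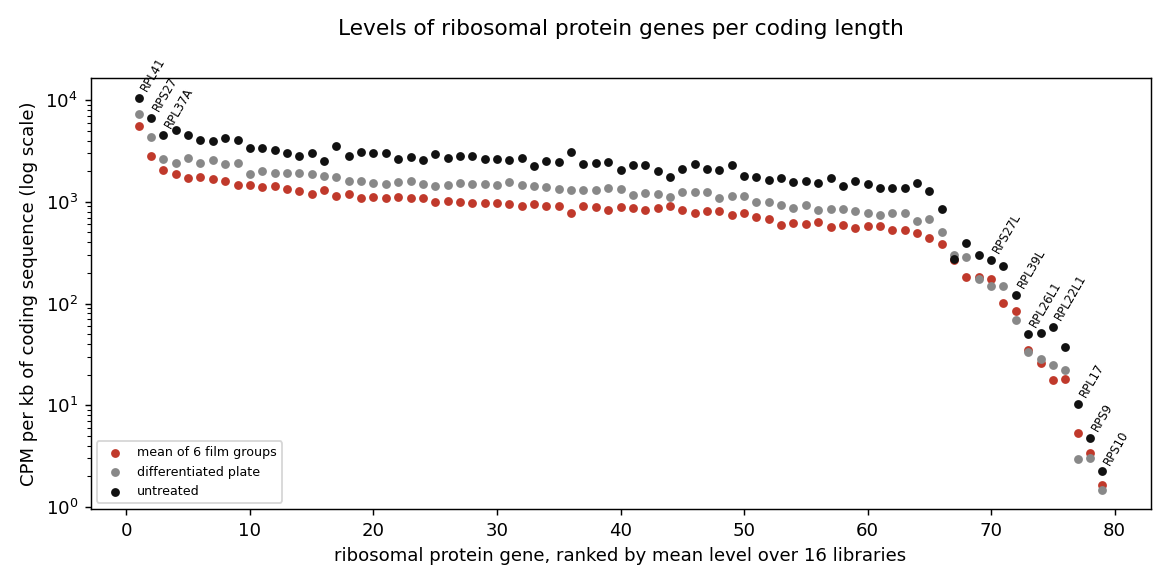
Levels of 79 ribosomal protein genes in CPM per kilobase of coding sequence (log axis), ranked by the mean of the 16 libraries, with 1 point each for the mean of the 6 film groups, differentiated plates and untreated cells; the 6 genes with a mean of 1 or less are left out. Most genes lie within a narrow band with untreated cells at the top and films at the bottom, and a tail that includes RPL17, RPS9 and RPS10 falls to a few CPM per kb.

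Ribosomal protein genes took a smaller share of reads on films than on either kind of plate. Their share of the reads assigned to genes was 3.73 and 3.74% in P(rGO) ES, 3.25 and 2.94% in P(rGO), 3.52 and 3.30% in PEDOT:PSS ES, 3.69 and 3.45% in PEDOT:PSS, 3.73 and 3.47% in ITO ES, and 3.19 and 3.15% in ITO. It was 5.74 and 4.27% on differentiated plates and 6.45 and 9.28% in untreated cells. The 12 film libraries, the plates and the untreated cells did not overlap, but the 2 libraries of each plate group lay far apart, with SDs of 1.04 points for differentiated plates and 2.00 points for untreated cells. Mitochondrially encoded transcripts took 4.58 to 7.33% of reads on films, 8.58 and 5.42% on differentiated plates, and 8.09 and 7.51% in untreated cells. On differentiated plates both shares were lower in the second library than in the first. In untreated cells the mitochondrial share was lower and the ribosomal share higher in the second library. The part of mitochondrial transcripts and of the cell cycle markers in the ribosomal share was not tested.

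**Figure D2:**
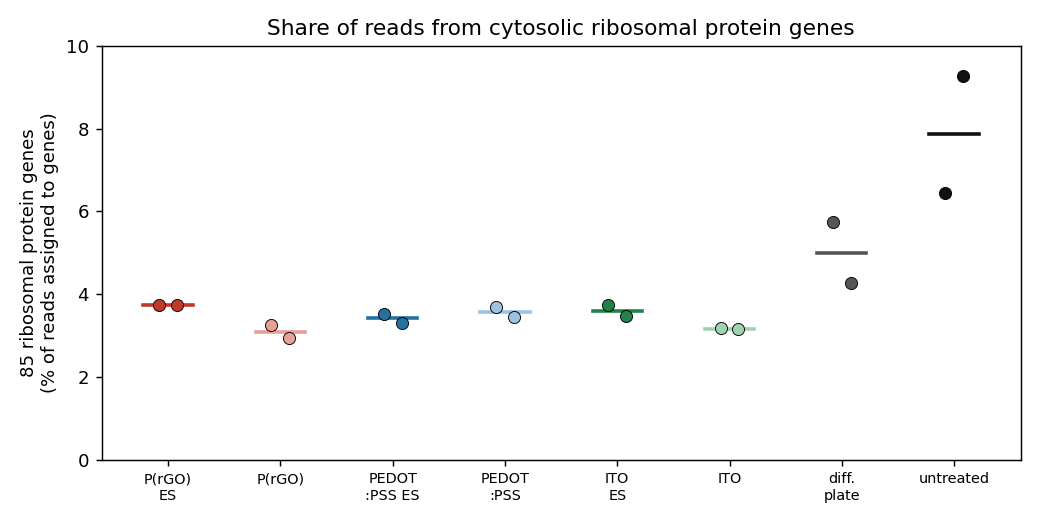
Share of reads assigned to genes that fell on the 85 ribosomal protein genes, in percent, with 1 point per library and a bar at the mean of the 2 libraries of each group. Film libraries lie between 2.94 and 3.74%, below the differentiated plates (4.27 and 5.74%) and the untreated cells (6.45 and 9.28%).

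Differentiation on plates was set against untreated cells to ask how the members changed with the differentiation protocol. The protocol joins retinoic acid, BDNF, lowered serum and time in culture, which cannot be told apart. Nearly the whole group was lower in differentiated cells. Of 80 members tested, 73 fell and none rose, where 15.8% of the 18081 genes tested fell and 13.8% rose (edgeR's quasi-likelihood test, Benjamini-Hochberg adjusted p of at most 0.05). The median log2 fold change of the members was -0.82, against -0.01 over all genes tested. All 3 stalk genes fell, as did 39 of 42 large subunit genes, 26 of 28 small subunit genes and 5 of 7 paralogues.

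The stalk recruits the GTPases that drive translation. Its base, RPLP0, had 1465 and 1050.0 CPM on differentiated plates, against 2351 and 3478 CPM in untreated cells. Both differentiated libraries were below both untreated libraries, and the log2 fold change was -1.21 (SE 0.20, adjusted p 0.000975 by edgeR). The stalk tips RPLP1 and RPLP2 changed by -1.06 (SE 0.19) and -1.03 (SE 0.20) on the log2 scale. In the small subunit, RPS29, a small zinc-binding protein, had 123 and 95.0 CPM on differentiated plates, against 185 and 327 CPM in untreated cells, and fell by 1.23 on the log2 scale (SE 0.21). RPSA, also known as the laminin receptor precursor, had 1201 and 954 CPM on differentiated plates and 1631 and 2484 CPM in untreated cells, with a log2 fold change of -0.93. RPS6 had 1154 and 722 CPM on differentiated plates and 1621 and 1887 CPM in untreated cells, with a log2 fold change of -0.90. These groups did not overlap for any of the 3 genes. RPS27A, made as a fusion with ubiquitin, changed by -0.96, and RPL10, which is needed for the joining of subunits, by -0.57.

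The largest fall among the members named was that of RPL17, which had 1.36 and 1.90 CPM on differentiated plates, against 3.67 and 7.69 CPM in untreated cells (log2 fold change -1.79, SE 0.37). It rests on few reads and its pseudogene rows hold more. The paralogue RPL22L1 came next, with 12.3 and 5.84 CPM on differentiated plates and 18.3 and 24.5 CPM in untreated cells (-1.24, SE 0.28), while its partner RPL22 changed by -0.46 and did not pass the test (adjusted p 0.0638 by edgeR). The other members that did not pass were RPL36A, RPL41, RPS9, RPS10, RPL3L and RPL7L1. RPL7L1 had 226 and 235 CPM on differentiated plates and 245 and 179 CPM in untreated cells, so that the groups overlapped (log2 fold change 0.12, SE 0.14).

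By library, 74 of the 80 members were lower in both differentiated libraries than in both untreated ones, as were 27.8% of all genes tested, and 1 was higher in both, against 28.6% of genes. The count of 73 depends on single libraries: 35 members passed without the second untreated library and 17 without the second plate library. With only these 4 libraries in the fit 0 passed, where just 2 residual degrees of freedom remain, while DESeq2 called 75. The share of all genes called in these refits was not counted. Over the same comparison all 5 cell cycle markers fell, and their summed level was 592 and 321 CPM on differentiated plates and 1339 and 1886 CPM in untreated cells. Over all genes tested 15.8% fell, and of 9 mesenchymal or fibroblast markers tested 7 fell. Their part in the change of the ribosomal protein genes was not tested.

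**Figure D3:**
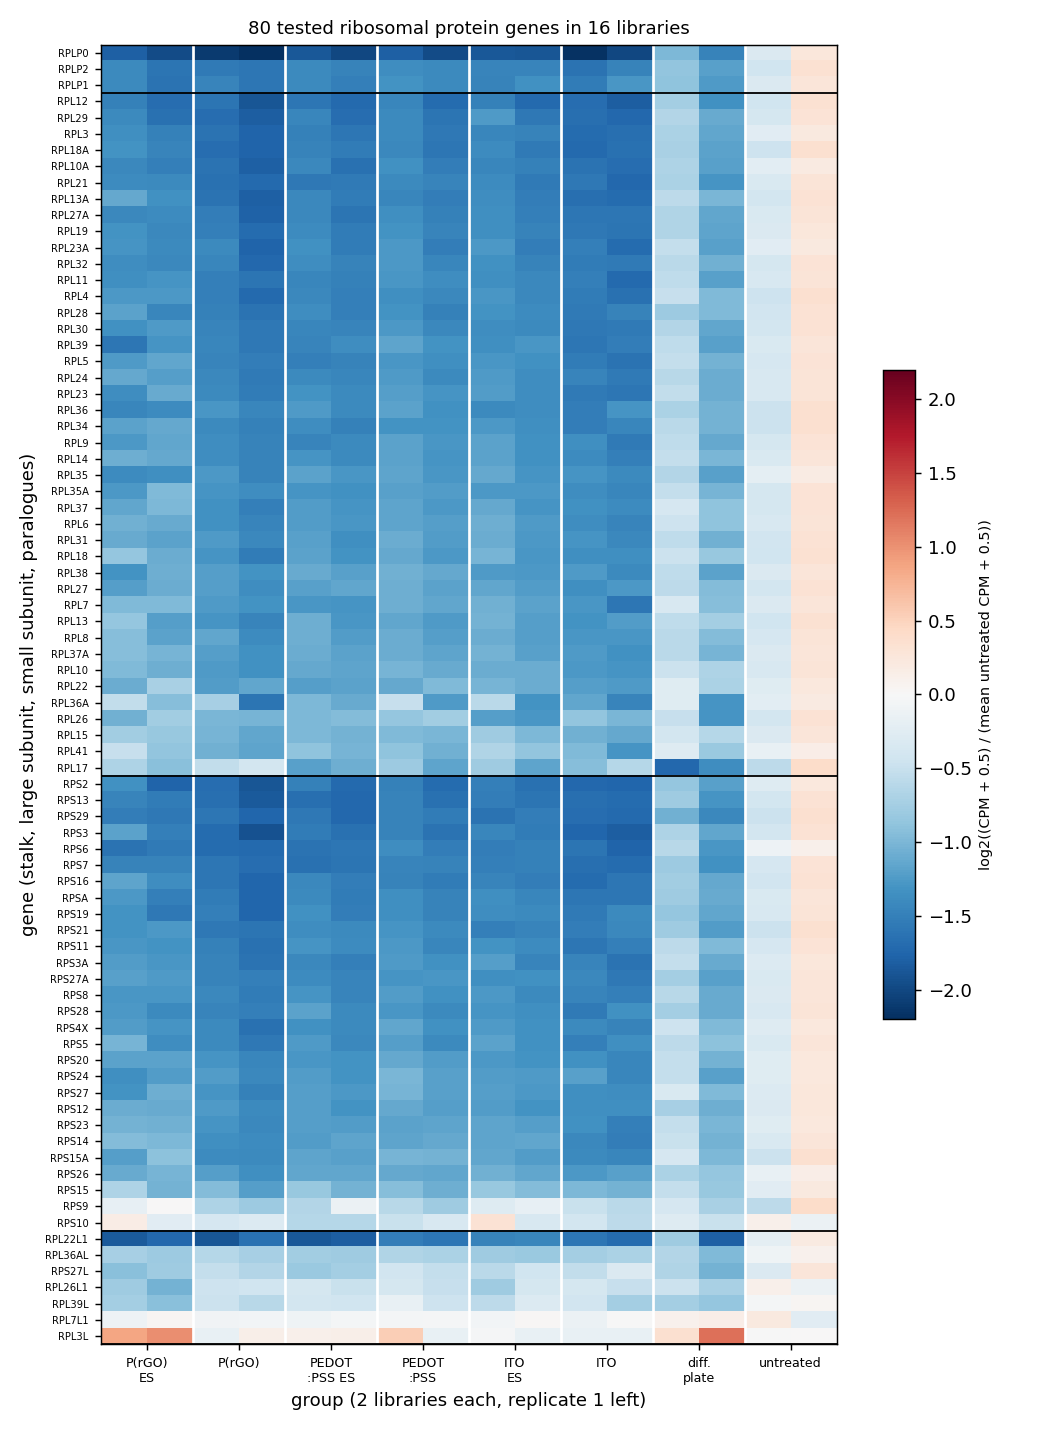
Log2 ratio of CPM plus 0.5 to the untreated mean plus 0.5, for the 80 tested ribosomal protein genes (rows, by role) in the 16 libraries (columns, 2 per group); blue is lower and red is higher than in untreated cells. Most rows are darkest on films and lighter on differentiated plates, RPL7L1, RPS10 and RPS9 are pale throughout, and RPL17 is darkest on differentiated plates.

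Films without stimulation were set against differentiated plates. The contrast holds the film together with its poly-L-lysine and laminin coating, and since the coating of the plates is not stated, material and coating cannot be told apart. Ribosomal protein genes were lower on P(rGO) and ITO. On P(rGO) 20 of 80 members fell and none rose, where 1.64% of all genes tested fell and 2.99% rose, and the median log2 fold change was -0.65, against -0.02 over all genes. On ITO 17 fell and none rose, where 1.73% of genes fell and 2.5% rose, with a median of -0.66, against -0.02. On PEDOT:PSS 0 passed edgeR's test, where 0.454% of genes fell and 1.02% rose, although the median was -0.46 and 50 members had an unadjusted p under 0.05, as did 13.8% of all genes. DESeq2 called 3 members on PEDOT:PSS, and the share of all genes it called was not counted. The 3 comparisons share the plate libraries, so their values are not independent of each other.

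RPLP0 had 680.2 and 593 CPM in P(rGO) and 642 and 729 CPM in ITO, against 1465 and 1050.0 CPM on differentiated plates. All 4 film libraries were below both plate libraries, and the log2 fold changes were -0.98 (SE 0.20, adjusted p 0.0140 by edgeR) on P(rGO) and -0.87 (SE 0.20, adjusted p 0.0251) on ITO. RPL13A, which also binds messenger RNA outside the ribosome, had 809.7 and 719.9 CPM in P(rGO) and 786 and 772 CPM in ITO, against 1679 and 1240 CPM on differentiated plates. RPS3, at the entry of the messenger RNA channel, had 609 and 519 CPM in P(rGO) and 587 and 558 CPM in ITO, against 1229 and 892 CPM on differentiated plates. Neither gene overlapped between film and plate libraries. RPL13A changed by -0.93 on P(rGO) and -0.91 on ITO, and RPS3 by -0.91 and -0.89 (SE 0.21 to 0.22). RPL4, part of the exit tunnel wall, changed by -0.89 and -0.88, and RPL29 by -0.89 and -0.83, and all of these passed the test on both films.

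Among the members followed in each comparison, RPS6, RPL10, RPL3 and RPL22 also fell on both films, RPS6 by 0.80 on P(rGO) and 0.78 on ITO on the log2 scale. RPL7 fell on ITO (-0.82, adjusted p 0.0403 by edgeR) and did not pass on P(rGO) (-0.67, adjusted p 0.0855 by edgeR). RPSA (-0.71 and -0.66), RPS27 (-0.77 and -0.75), RPL39 (-0.67 and -0.71) and RPS27A (-0.53 and -0.54) did not pass. RPLP1 had 629 and 574 CPM in P(rGO), 595 and 712 CPM in ITO, and 933 and 726 CPM on differentiated plates, with log2 fold changes of -0.46 and -0.34 that did not pass. RPL17, whose counts are few, stood the other way at 1.27 and 0.93, also without passing.

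Across all films, 58 of 80 members were lower in each of the 12 film libraries than in both plate libraries, as were 8.3% of genes tested, and 1 was higher in each, against 9.24% of genes. In 55 members every untreated library was above both plate libraries and these above every film library, an order held by 1.89% of genes. The 25 exceptions include all 7 tested paralogues and the low-count genes RPL17, RPL26, RPL36A, RPS9 and RPS10. The others are core genes: RPL8, RPL22, RPL35, RPL35A, RPL37, RPL37A, RPL38, RPL39, RPL41, RPS14, RPS15, RPS15A and RPS24. The calls against plates rest on few libraries. The count was 0 on P(rGO) without the first plate library or either P(rGO) library and 51 without the second plate library, and it was 0 on ITO without the first plate library or either ITO library and 43 without the second plate library. DESeq2 called 49 members on P(rGO) and 47 on ITO. Without the untreated libraries in the fit, an alternative added after seeing the data, edgeR called 65 and 63. The share of all genes called in these refits was not counted. In the same comparisons 0.0 of 5.0 cell cycle markers fell on P(rGO) and 0.0 on ITO. Over all genes tested, 1.64% fell and 2.99% rose on P(rGO), and 1.73% fell and 2.5% rose on ITO. Of 9.0 mesenchymal or fibroblast markers 1.0 rose and 1.0 fell on P(rGO), and 4.0 rose and 1.0 fell on ITO, and their part in the members' values was not tested.

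**Figure D4:**
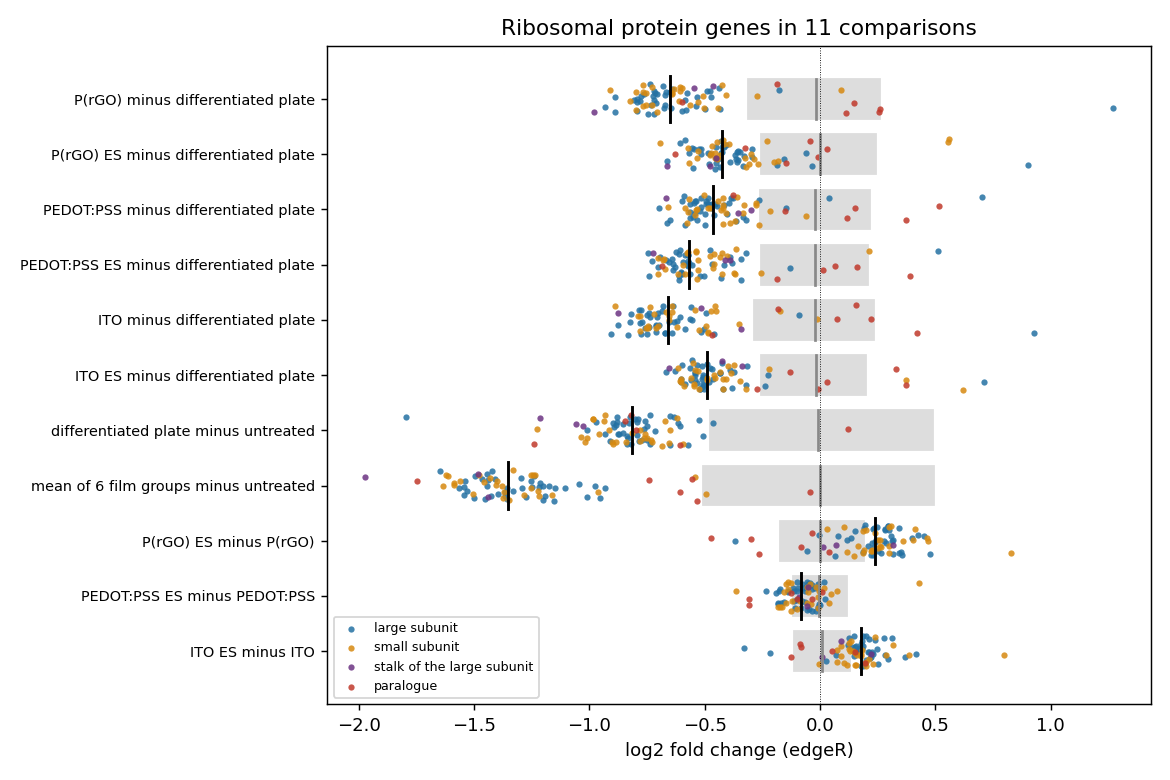
Log2 fold changes from edgeR for tested ribosomal protein genes in 11 comparisons, 1 point per gene coloured by role, with a black bar at the members' median and a grey box at the quartiles and median of all 18081 genes tested; RPL3L (56 counts in all) is left out. Members lie left of the grey box for films against plates (medians -0.43 to -0.66) and for differentiated or film cells against untreated cells, and close to it for stimulation (medians 0.24, -0.08 and 0.18).

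Stimulated films were also set against differentiated plates, which combines film, coating and current. No member passed edgeR's test on P(rGO) ES, PEDOT:PSS ES or ITO ES, where 0.841, 0.459 and 0.741% of all genes fell and 0.835, 0.791 and 1.44% rose, and 42, 58 and 55 members had an unadjusted p under 0.05, as did 15.4, 12.9 and 13.4% of all genes. The medians were -0.43, -0.57 and -0.49, and the smallest adjusted p of a member was 0.0652, that of RPL22 on PEDOT:PSS ES. RPLP0 stood at -0.67, -0.72 and -0.66 and RPS6 at -0.69, -0.70 and -0.60 on the log2 scale, with SEs of 0.18 to 0.20. DESeq2 called 2, 11 and 2 members, and without the second plate library edgeR called 7, 12 and 3. Without the untreated libraries in the fit edgeR called 13, 41 and 28. The share of all genes called under these alternatives was not counted.

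Films as a whole, with and without current, were set against untreated cells. This comparison joins the differentiation protocol, film, coating and, in the stimulated groups, current. Here 76 of 80 members fell and none rose, where 26.0% of genes tested fell and 21.9% rose, with a median log2 fold change of -1.35, against 0.00 over all genes. RPLP0 had 593 to 841 CPM (median 746) in the 12 film libraries, against 2351 and 3478 CPM in untreated cells. Every film library was below both untreated libraries, and the log2 fold change was -1.97 (SE 0.13, adjusted p 2.3e-07 by edgeR). This SE and p-value use 1 spread per gene shared by all 8 groups, which need not be that of the untreated libraries. The members' share of reads had an SD of 2.00 points in untreated cells and at most 0.22 points in a film group. RPL22L1 (-1.75), RPL12, at the base of the stalk (-1.65), RPS2 (-1.63) and RPS13 (-1.62) followed. RPS9, RPS10, RPL3L and RPL7L1 did not pass, with RPL7L1 at 194 to 219 CPM on films and 245 and 179 CPM in untreated cells. In 75 members all film libraries were below both untreated libraries, as in 20.5% of genes, and in 0 above both, against 19.7% of genes. Leaving out any 1 library left 73 to 77 members called.

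Stimulation was tested by setting each stimulated film against the same film without current. No member passed on any film by edgeR or DESeq2, and no gene passed over the whole table (0.0%). On P(rGO) 72 of 80 were above 0 with a median log2 fold change of 0.24 and 5 had an unadjusted p under 0.05, as did 5.45% of all genes. On ITO 74 were above 0 with a median of 0.18 and 0 had an unadjusted p under 0.05, against 1.62% of all genes. On PEDOT:PSS 72 were below 0, the median was -0.08 and 0 had an unadjusted p under 0.05, against 0.697% of all genes. Medians over all genes were 0.00, 0.01 and 0.00 for P(rGO), ITO and PEDOT:PSS, and 50.3, 47.8 and 51.0% of all genes were below 0.

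RPL13A had 1140 and 987 CPM in P(rGO) ES, against 809.7 and 719.9 CPM in P(rGO), which do not overlap (log2 fold change 0.48, SE 0.21, adjusted p 0.884 by edgeR). On ITO it had 968 and 867 CPM in ITO ES, against 786 and 772 CPM in ITO (0.24, SE 0.21). On PEDOT:PSS it had 932 and 861 CPM in PEDOT:PSS ES, against 926 and 873 CPM in PEDOT:PSS, which overlap (-0.01, SE 0.21). RPL41 had 552 and 431 CPM in P(rGO) ES, against 378 and 353 CPM in P(rGO), and differed by 0.43 (SE 0.19). RPLP0 stood at 0.32, 0.22 and -0.06 on P(rGO), ITO and PEDOT:PSS (SE 0.20 each), and RPS6 at 0.11, 0.18 and -0.16 (SE 0.18 each). In both P(rGO) ES libraries 57 members were above both P(rGO) libraries, against 18.1% of genes, and 4 were below, against 20.4% of genes. In ITO ES 63 were above, against 14.4% of genes, and 2 below, against 13.0%. In PEDOT:PSS ES 0 were above, against 17.7% of genes, and 34 were below, against 18.7%. Of uniquely aligned reads, 10.0 and 8.95% lay outside genes in P(rGO) ES, against 7.28 and 7.80% in P(rGO). These shares were 7.91 and 7.53% in PEDOT:PSS ES, against 7.10 and 7.23% in PEDOT:PSS. In ITO ES they were 8.63 and 7.30%, against 7.94 and 7.75% in ITO, and their part in the members' values was not tested.

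The cell cycle markers summed to 138 and 178 CPM in P(rGO) ES, against 285 and 327 CPM in P(rGO), and to 247 and 534 CPM in ITO ES, against 402 and 397 CPM in ITO. On PEDOT:PSS they summed to 341 and 394 CPM in PEDOT:PSS ES, against 580.3 and 490.3 CPM in PEDOT:PSS. They were lower with current on P(rGO) and PEDOT:PSS, their groups overlapped on ITO, and their part in the members' values was not tested. The mean effect of stimulation over the films had a median of 0.11. At an unadjusted p under 0.05 stood 2 members, RPL41 (0.27, SE 0.11) and RPS9 (0.55, SE 0.22), and 5.65% of all genes. The difference of the stimulation effect between films was tested in the same model, and no member passed by edgeR or DESeq2. No member had an unadjusted p under 0.05 there, against 0.736% of all genes.

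Films were compared with each other under the same current. No member passed edgeR's or DESeq2's test in any of the 6 comparisons, and no gene did (0.0%). Without current, PEDOT:PSS stood above P(rGO) for 78 of 80 members (median log2 fold change 0.19) and above ITO for 76 (0.19), with 0 members at an unadjusted p under 0.05, and ITO against P(rGO) was split with 42 above and 38 below 0 (0.01). With current, PEDOT:PSS ES was below P(rGO) ES for 68 members (-0.12, 4 at an unadjusted p under 0.05) and below ITO ES for 65 (-0.06, 1 at that level), and ITO ES was below P(rGO) ES for 63 (-0.06, 2 at that level). Over all genes, in the same order, 52.5, 49.8 and 52.2% were below 0 without current and 50.9, 51.9 and 50.5% with current. At an unadjusted p under 0.05 stood 1.34, 1.57 and 1.65% of all genes without current and 3.26, 1.31 and 3.52% with current. The median SE of a single member was 0.20 in each comparison. Comparisons that hold the same film group share its libraries.

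The paralogues were set beside the genes they resemble. On films without current their 7 log2 fold changes against plates had medians of 0.11, 0.12 and 0.07 on P(rGO), PEDOT:PSS and ITO, where the large subunit genes had -0.68, -0.49 and -0.70, and no paralogue passed the test. RPS27L had 35.5 to 53.7 CPM (median 45.2) on films, 42.2 and 32.5 CPM on differentiated plates and 53.8 and 80.6 CPM in untreated cells, whereas RPS27 had 608 to 835 CPM on films, 1341 and 867 CPM on differentiated plates and 1379 and 2016 CPM in untreated cells. The film libraries of RPS27L overlapped the plates, and those of RPS27 lay below them. Per 100 RPS27 counts, RPS27L had 4.83 to 8.20 counts (median 6.18) on films, 3.15 and 3.75 on differentiated plates, and 3.91 and 4.00 in untreated cells. Each film library was thus above each plate library by this ratio.

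For RPL39L, a paralogue best known from testis, the counts per 100 RPL39 counts were 3.69 to 6.39 (median 5.52) on films, 2.49 and 3.61 on differentiated plates, and 3.56 and 2.46 in untreated cells. The film libraries again lay above the plates, though by little for the lowest. For RPL7L1, a nucleolar relative of the large subunit protein RPL7, they were 25.2 to 42.1 (median 31.2) on films, 18.9 and 29.7 on differentiated plates, and 20.1 and 9.81 in untreated cells, with films and plates overlapping. RPL26L1 had 80.8 to 187 counts per 100 RPL26 counts on films, 100.0 and 148 on differentiated plates, and 141 and 71.98 in untreated cells, and RPL36AL had 729.8 to 1623 per 100 RPL36A counts on films, 635 and 1088 on differentiated plates, and 896 and 755 in untreated cells. Films overlapped the plates in both, so that RPS27L and RPL39L were the pairs of these 6 in which all film libraries stood apart from the differentiated plates. For RPL22L1 the order was another, with 6.61 to 10.7 counts per 100 RPL22 counts on films, 9.75 and 6.21 on differentiated plates, and 14.6 and 13.8 in untreated cells. Against untreated cells RPL22L1, RPS27L (-0.61), RPL39L (-0.54), RPL26L1 (-0.56) and RPL36AL (-0.74) all fell on films. The difference between paralogues and other members was not tested, and reads shared by near-identical copies could move these ratios.

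**Figure D5:**
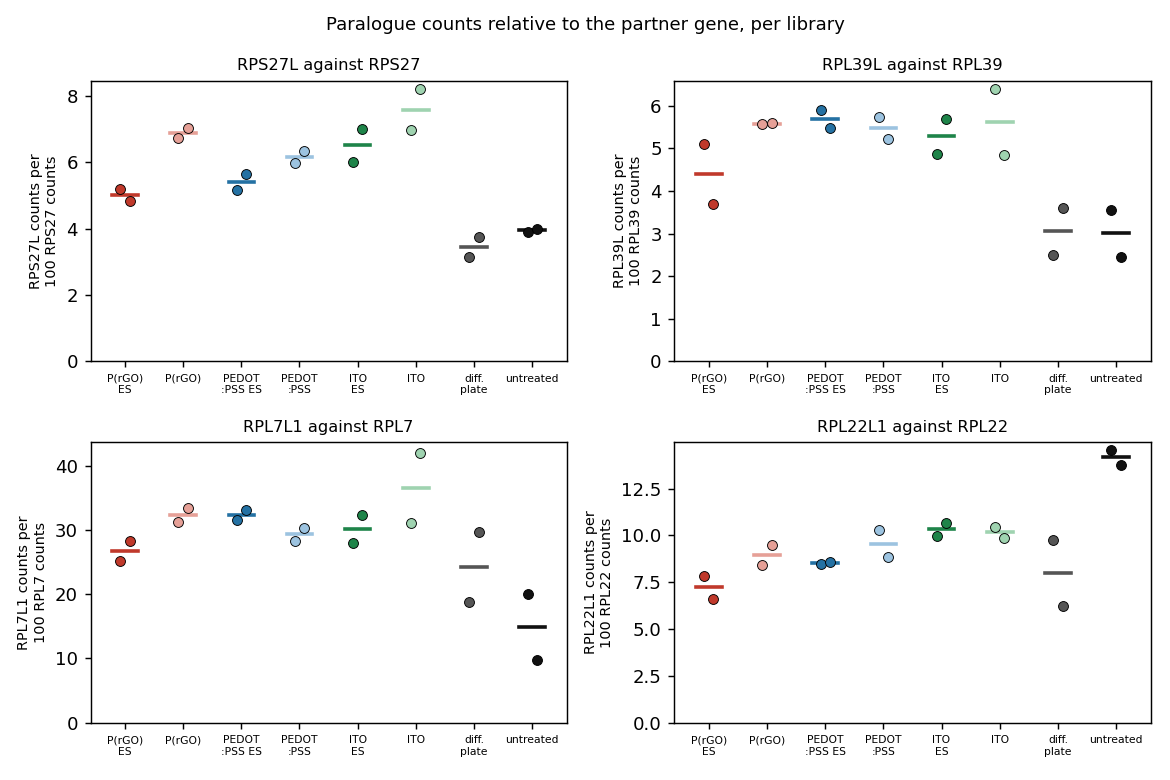
Counts of 4 paralogues per 100 counts of the partner gene, with 1 point per library and a bar at the group mean, for 8 groups of 2 libraries. RPS27L and RPL39L lie higher on films than on either kind of plate, RPL7L1 films overlap the differentiated plates, and RPL22L1 is highest in untreated cells.

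Across the 16 libraries the members moved together. For 69 of the 80 the Pearson correlation of log2 CPM with the mean of the other members was above 0.9, with a median of 0.987, over libraries that share groups and scaling. The lowest values were those of RPL7L1 (near 0), RPL3L (0.06), RPL17 (0.38), RPS10 (0.39), RPL39L (0.50), RPL26L1 (0.50), RPS9 (0.52) and RPS27L (0.59). Outside the members, the genes with the most similar pattern were BTF3, the beta subunit of the complex that binds nascent chains (r = 0.993, n = 16 libraries), EIF3H, a subunit of initiation factor 3 (0.993), and PABPC1, the cytoplasmic poly(A)-binding protein (0.990). BTF3 had 279 to 349 CPM on films, 569 and 403 CPM on differentiated plates, and 658 and 968 CPM in untreated cells.

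Fold changes were also set side by side by the sequence at the start. Of 44 tested members with a tract of at least 5 bases 39 fell with differentiation on plates (median log2 fold change -0.84), and of 20 with a shorter run or none 19 fell (-0.80). On P(rGO) against plates the counts were 9 of 44 (-0.65) and 7 of 20 (-0.57), and on ITO 8 of 44 (-0.65) and 5 of 20 (-0.57). Over all genes tested, 15.8% fell with differentiation, 1.64% on P(rGO) and 1.73% on ITO. RPL3 and RPL4, which have no tract of that length in the RefSeq table, fell in all of these comparisons. The sets depend on the annotated start base, so a start off by a few bases would move a gene between them. RPL36AL, with a run of 3, has further C and T bases directly before its start. The set with a shorter run or none also holds the paralogues RPS27L, RPL26L1, RPL36AL and RPL7L1. The difference between the sets was not tested, and they do not separate genes with and without a TOP tract in these cells.

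Other genes of the translation machinery were described by lists. Among ribosomal subunits outside the symbol rule, FAU (-0.62) fell with differentiation on plates and RACK1 (-0.51) did not pass. RACK1 fell on P(rGO) (-0.91) and ITO (-0.89) against plates, where FAU (-0.22 and -0.20) did not pass, and both fell on films against untreated cells. Of 20 translation factors and host genes with a TOP tract 9 fell with differentiation (median -0.66), 7 on P(rGO) against plates (-0.73), 8 on ITO against plates (-0.76) and 18 on films against untreated cells (-1.24), and none rose. Over all genes tested, in the same order, 15.8, 1.64, 1.73 and 26.0% fell and 13.8, 2.99, 2.5 and 21.9% rose. The elongation factor EEF1A1 had 5416 and 5099.8 CPM in P(rGO), 5313 and 4995 CPM in ITO, 9698 and 7721 CPM on differentiated plates, and 11257 and 15329.7 CPM in untreated cells. Its log2 fold change was -0.73 on P(rGO) and -0.76 on ITO against plates and -0.61 for plates against untreated cells, and each passed. EEF2, which moves the ribosome along, changed by -0.96 and -0.94 on these films and by -0.29 with differentiation, where it did not pass.

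Of 27 genes of ribosome assembly tested, 13 fell with differentiation on plates (median -0.53), 2 on P(rGO) and 0 on ITO against plates (-0.29 and -0.25), and 21 on films against untreated cells (-0.69). Over all genes tested, 15.8, 1.64, 1.73 and 26.0% fell, in the same order. NPM1, the nucleolar chaperone, fell by 1.01 on the log2 scale and GNL3 by 1.14 with differentiation. Of 72 mitochondrial ribosomal protein genes 36 fell with differentiation (-0.49), 0 passed on P(rGO) or ITO against plates (medians 0.02 and -0.01), and 45 fell and 2 rose on films against untreated cells (-0.44). Over all genes tested, 15.8% fell with differentiation, and 26.0% fell and 21.9% rose on films against untreated cells. In the growth control list MYCN had 2.00 and 2.43 CPM in P(rGO), 3.14 and 1.81 CPM in ITO, 9.99 and 6.94 CPM on differentiated plates, and 13.7 and 7.81 CPM in untreated cells. It fell on P(rGO) (-1.93) and ITO (-1.77) against plates and did not pass with differentiation (-0.34). EIF4EBP1, the translation repressor that mTOR inactivates, fell with differentiation (-1.03), while LARP1 and MTOR passed in none of these comparisons. In the surveillance list, which holds genes of the response to free ribosomal proteins, CDKN1A rose on P(rGO) (1.35) and ITO (1.59) against plates, MDM2 (0.24 and 0.42) did not pass, and none of the 6 passed with differentiation.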

How the data were processed

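Per the labels, polyadenylated RNA from SH-SY5Y cells was sequenced from directional libraries. Per the submitters' processing notes, reads were handled with STAR and HTSeq on GRCh38.p13 (hg38), and versions are not given in the sources used here. The authors deposited raw read counts per Ensembl gene for 16 libraries in 1 table, and every sample column was used. The 5 summary rows for reads not assigned to a gene held 26.1 to 31.8% of all reads and stayed out of library sizes. Symbols were matched for 62639 of 69222 IDs. Counts were tested with edgeR 4.0.16 in R 4.3.3 (trimmed mean of M values scaling, filterByExpr, robust quasi-likelihood fit of all 8 groups, 8 residual degrees of freedom), with Benjamini-Hochberg adjustment over all 18081 genes tested. The standard error is the log2 fold change divided by the square root of F. The fit was also run on simulated counts, drawn independently for each gene with 1 spread per gene in all groups. The members here move together and the groups differ in spread, so no conclusion is drawn from that run. CPM uses scaled library sizes, and correlations use log2 CPM with a prior count of 2. Called means an adjusted p of at most 0.05. Alternatives were DESeq2 1.42.0, other scalings, no filter, a replicate block, fits of the compared groups alone, pseudogene rows added and each library left out. Genes named were the 5 called members with the largest fall and rise per comparison with at least 5 CPM in 1 group, a set of members and paralogue pairs followed throughout, the 3 highest and 3 lowest per length, the 3 genes most alike, and pathway lists. RPS9, RPL41 in the stimulation comparison and single genes of the pathway lists were chosen after their values were seen. Some members and list genes are not reported here. The members and lists were chosen with earlier results of these data known.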

Additional observations from a re-analysis of the deposited data

How the results depend on the processing

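Counts of members called on films against untreated cells ranged from 73 to 77 when single libraries were left out and from 76 to 79 under the other settings, and those for stimulation, film against film and the difference of stimulation between films were 0 throughout. The other counts moved. For differentiated plates against untreated cells (73), 0 members were called in a fit of only these groups, and 17 to 76 when single libraries were left out. For P(rGO), PEDOT:PSS and ITO against plates (20, 0 and 17), the counts were 60, 27 and 62 with no low-count filter, 49, 3 and 47 with DESeq2, and 65, 23 and 63 without the untreated libraries, a fit chosen after seeing the data. A fit of only the groups compared gave 7 for P(rGO) and 0 for ITO, and adding pseudogene rows to the members gave 9 for ITO. Leaving out single libraries gave 0 to 51 for P(rGO), 0 to 1 for PEDOT:PSS and 0 to 43 for ITO. For P(rGO) ES, PEDOT:PSS ES and ITO ES against plates (0 each), the counts were 16, 46 and 35 with no filter, 2, 11 and 2 with DESeq2, and 13, 41 and 28 without the untreated libraries, and leaving out single libraries gave 0 to 7, 0 to 12 and 0 to 3. The share of all genes called was not counted under any of these settings, and the cause was not tested. RPL36AL, which had not passed, ranged from -0.037 to 0.285 on P(rGO) and from -0.064 to 0.244 on ITO against plates when single libraries were left out, and was below 0 without the second plate library. The median log2 fold change of members on P(rGO) and ITO against plates was -0.38 and -0.41 without the first plate library and -0.86 and -0.87 without the second.

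All first replicates share a prefix in the labels and all second replicates another, whose meaning is not stated. Over all tested genes, 16 of 28 pairs of groups had a correlation of same-numbered deviations above 0.1 (median 0.106, lowest -0.189). Over the members alone 13 pairs did (median 0.061, from -0.605 to 0.656). The mitochondrial share was higher in the first replicate in 7 of 8 groups. Whether the numbers mark a shared batch is thus not settled, and the fit without the block was kept because not every pair was above 0.1. With the replicate number as a block, 73 members were called for differentiated plates against untreated cells, 16 for P(rGO) and 12 for ITO against plates, 76 for films against untreated cells and 0 in the other comparisons.

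With 2 libraries a group, the median SE of a member was 0.20 on the log2 scale. Members with few counts (RPL17, RPL36A, RPS9, RPS10, RPL3L) are the least precise.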
